A study of Mus musculus with 21 samples.

Results

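MicroRNAs were compared between mice given sildenafil after transverse aortic constriction and mice with the constriction alone. Transverse aortic constriction (TAC) is a surgery that narrows the aorta and overloads the left ventricle with pressure. The comparison used 10 of the 21 libraries of the study, chosen by their labels: 5 of the group TAC+PDE5A-I and 5 of the group TAC. All 10 mice were C57BL/6J and all carried the constriction, so the drug was the labelled difference between the groups. Sildenafil, an inhibitor of phosphodiesterase 5A (PDE5A), was given for 4 weeks from 1 week after surgery, and the TAC mice had no drug treatment. The dose of sildenafil and the age and sex of the mice were not stated in the sources used here. Each library came from the left ventricular myocardium of 1 mouse and holds read counts of mature microRNAs from a small RNA sequencing library of total RNA.

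A microRNA is a short RNA that guides a silencing complex to messenger RNAs, mostly through its seed, the bases 2 to 8 from its 5′ end. It is cut from a hairpin whose arms, named 5p and 3p, can both be kept. PDE5A breaks down cyclic GMP, a second messenger that acts against growth signals in heart muscle cells through protein kinase G, and sildenafil blocks that breakdown. In an overloaded heart the microRNAs hosted by myosin genes, the fibrosis-related miR-21, miR-29 and miR-199 and the markers of vessel and blood cells are the usual points of reference.

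The sequences of the microRNAs on which the comparison turns are given 5′ to 3′ with the seed in capitals (RefSeq, mouse build GRCm38.p6). The heart muscle group comes first, because miR-208a and miR-208b share a seed, and because the arms of the miR-208a hairpin went opposite ways.
miR-208a-3p: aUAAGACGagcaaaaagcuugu
miR-208b-3p: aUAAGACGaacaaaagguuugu
miR-499-5p: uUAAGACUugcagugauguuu
miR-208a-5p: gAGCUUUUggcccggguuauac
The miR-208a hairpin lies at chr14:54949060-54949142 on the minus strand, in an intron of Myh6, the gene of the adult cardiac myosin heavy chain. The miR-208b hairpin lies at chr14:54975700-54975776 on the minus strand, in an intron of Myh7, the myosin heavy chain that rodent ventricles use before birth and take up again under load. The miR-499 hairpin lies at chr2:155622880-155622958 on the plus strand, in an intron of Myh7b.

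Further sequences are those of microRNAs with low levels under sildenafil, which are rich in A and U, and of those with high levels, which are richer in G and C.
miR-21a-5p: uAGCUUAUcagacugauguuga
miR-101a-3p: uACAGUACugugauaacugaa
miR-101c: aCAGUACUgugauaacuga
miR-144-3p: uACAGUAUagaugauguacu
miR-142a-5p: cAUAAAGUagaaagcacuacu
miR-190a-5p: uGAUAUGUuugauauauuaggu
miR-340-5p: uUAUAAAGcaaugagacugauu
miR-501-3p: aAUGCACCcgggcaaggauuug
miR-125a-5p: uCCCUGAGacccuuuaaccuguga
miR-92a-3p: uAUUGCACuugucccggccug
miR-1964-3p: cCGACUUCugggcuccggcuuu
miR-6538: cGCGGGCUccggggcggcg
GC content ran from 22.7% in miR-190a-5p and 27.3% in miR-340-5p to 63.6% in miR-1964-3p and 94.7% in miR-6538. The miR-21a hairpin lies at chr11:86584067-86584158 on the minus strand in an exon of Vmp1, the miR-190a hairpin at chr9:67236660-67236726 on the minus strand in an intron of Tln2, and the miR-501 hairpin at chrX:7241243-7241351 on the minus strand in an intron of Clcn5. MiR-101c is contained in miR-101a-3p at its positions 2 to 20, so reads can pass from 1 name to the other.

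The sildenafil libraries were shallower than the TAC libraries. TAC 1 to 5 held 5649824, 7171146, 5963729, 8497792 and 5373960 counts, and TAC+PDE5A-I 1 to 5 held 3149080, 3969716, 1631406, 1387007 and 1205417 counts. The means differed 2.88-fold and the groups did not overlap (two-sided exact permutation test, p = 0.00794, the smallest that 5 against 5 can give, adjusted over 2 tests 0.00794). TAC+PDE5A-I 3, 4 and 5 lie under 2000000 counts and are called the shallow libraries here, and replicates 1 and 2 the deep ones. The base composition of the counted microRNAs moved with the group as well. Weighted by counts, the mature sequences held 44.9% to 45.1% G and C in the TAC libraries (mean 45.02% ± 0.120, SD, n = 5), 46.0% in each deep sildenafil library, and 47.7%, 48.2% and 48.6% in the shallow ones. The sildenafil mean was 47.3% ± 1.21 (n = 5, exact permutation test, p = 0.00794, adjusted over 2 tests 0.00794). These means cover the microRNAs with a sequence at hand, which made up 53.3% to 61.6% of the TAC counts and 32% to 54.5% of the sildenafil counts. A library outside the comparison shows the same pair of features: TAC+PDE9A-I 5, from a mouse given a PDE9A inhibitor and no sildenafil, held 1546318 counts at 47.2% GC, against 44.7% to 45.3% in the other 5 libraries of its group. The part of depth or composition in the differences between the groups was not tested, and the drug group and low depth cannot be told apart in this design.

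**Figure D1:**
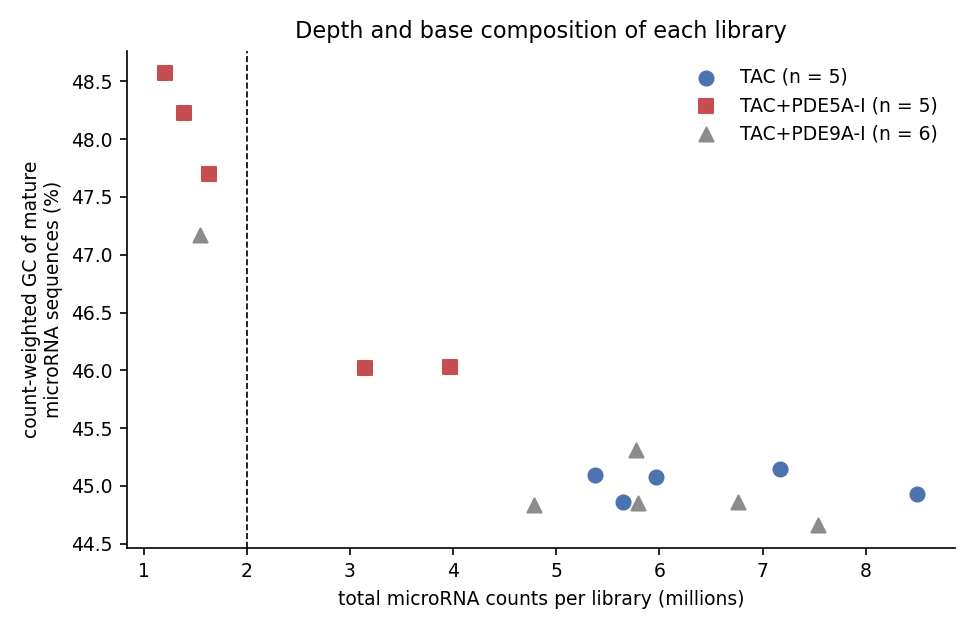
Total microRNA counts per library (x axis) against the count-weighted GC content of the mature sequences in percent (y axis), 1 point per library, for TAC, TAC+PDE5A-I and TAC+PDE9A-I, with a dashed line at 2000000 counts. The 5 sildenafil libraries lie left of and above the 5 TAC libraries, and TAC+PDE9A-I 5, at 1546318 counts and 47.2% GC, lies near the 3 shallow ones.

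Across the 462 microRNAs that passed the filter on low counts, 107 were higher (23.2%) and 100 were lower (21.6%) under sildenafil, 207 in all (44.8%), by edgeR's quasi-likelihood F test at a Benjamini-Hochberg adjusted p under 0.05. Levels are CPM, counts scaled to a common library total, after TMM scaling (without it for TAC+PDE9A-I, which was not in the fit), and changes are log2 fold changes, sildenafil over TAC, with their standard error (SE). The median log2 fold change of all 462 was -0.06. The lower microRNAs moved further, with a median of -2.35 against 1.11 for the higher ones. All 5 sildenafil libraries lay above all 5 TAC libraries for 80 microRNAs (17.3%) and below them for 110 (23.8%). In raw counts, before scaling to library size, 100 of the 107 higher microRNAs had a lower mean count in the sildenafil libraries and 7 a higher one.

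The balance of higher and lower calls depended on how libraries were scaled. Of the 207 calls 51.7% were higher. Upper-quartile scaling gave 177 higher, 68.6% of its calls (median of all microRNAs 0.47), the size factors of DESeq2 in edgeR gave 67 higher, 34.9% of its calls (median -0.30), and the DESeq2 Wald test gave 91 higher, 38.6% of its calls. All 107 higher and all 100 lower microRNAs had the same sign under these 3. Leaving out single libraries moved a count by more than 1.5 times for 5 libraries: the refit gave 71 higher and 64 lower without TAC 4, 68 higher without TAC 5, and 58, 59 and 56 higher without TAC+PDE5A-I 3, 4 and 5. Of the 107 higher calls, 69, 67, 57, 59 and 55 remained in these refits, and all 64 lower calls without TAC 4 were among the 100.

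With the 3 shallow libraries left out, 2 sildenafil libraries stood against 5 TAC libraries, 572 microRNAs were tested, and 6 were higher (1.05%) and 66 lower (11.5%). Of the 107 higher calls 5 remained, and of the 100 lower calls 60 remained. The direction was the same for 106 of the 107 and for 100 of the 100, with medians of 0.57 and -1.51. The deep libraries alone lay beyond all 5 TAC libraries for 72 of the 107 higher and 90 of the 100 lower microRNAs, and over all 462 they lay above TAC for 106 and below for 113. The 3 shallow libraries lay further out than both deep ones for 74 of the 107 and 74 of the 100, and over all 462 they lay above both deep ones for 99 and below for 162. TAC+PDE9A-I 5 stood above the other 5 libraries of its own group for 145 of the 462 (31.4%) and below them for 193 (41.8%). Among the 107 microRNAs higher under sildenafil it stood above all 5 for 93 and below all 5 for 0, and among the 100 lower ones it stood below all 5 for 96 and above all 5 for 0. Its log2 differences and those of sildenafil against TAC, which share no library, had a Spearman correlation of 0.83 and a Pearson correlation of 0.78 over 462 microRNAs, given as a description.

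**Figure D2:**
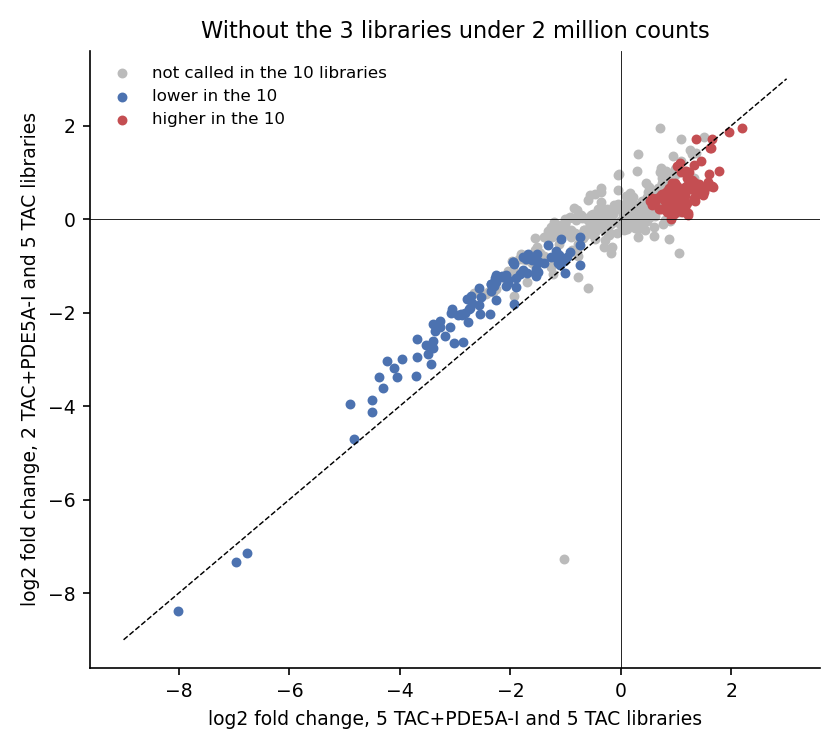
Log2 fold change of each microRNA over the 5 sildenafil and 5 TAC libraries (x axis) against the value from the 2 deep sildenafil libraries and 5 TAC libraries (y axis), 1 point per microRNA, coloured by the result over the 10 libraries, with the dashed line of equal values. Of the calls, 106 of the 107 higher and 100 of the 100 lower keep their sign. Their medians lie nearer 0 on the y axis, at 0.57 and -1.51 against 1.11 and -2.35 (miR-101c, at 0 in each sildenafil library, is off the plot). Single calls can lie further out on the y axis, such as miR-33-5p at -8.39 against -8.01.

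Of the heart muscle microRNAs 5 of 10 were lower and 2 were higher, and the median log2 fold change of the 10 was -1.60 (-0.78 without the shallow libraries, where 4 were lower and 0 higher). Over all 462 tested microRNAs 21.6% were lower and 23.2% higher, with a median of -0.06. In the fit without the shallow libraries 61 of the 462 were lower and 5 higher. MiR-208b-3p, which is made with the load-induced myosin Myh7, was measured at 3008, 1419.5, 3348, 4294 and 1572 CPM in TAC 1 to 5 and at 322, 229.6, 72.6, 71.8 and 120.4 CPM in TAC+PDE5A-I 1 to 5. Each sildenafil library was below each TAC library, and the 3 shallow ones were the lowest. The level was 16.7-fold lower, a log2 fold change of -4.06 ± 0.54 (SE, edgeR adjusted p = 0.000955), and it was -3.37 without the shallow libraries (edgeR adjusted p = 0.00678). TAC+PDE9A-I 5 held 74.4 CPM against 552 to 3303 in the rest of its group. With a correction for GC content the change was -0.88 and no longer passed (edgeR adjusted p = 0.0709).

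MiR-208a-3p, the product of the Myh6 intron, had 358, 417, 478, 655 and 506 CPM in TAC and 83.6, 124, 12.7, 8.44 and 10.8 CPM under sildenafil. The deep libraries lay between the TAC range and the shallow libraries. The log2 fold change was -3.300 ± 0.75 (edgeR adjusted p = 0.00768), -2.27 without the shallow libraries (edgeR adjusted p = 0.00446) and -1.37 with the GC correction (edgeR adjusted p = 0.00535). The other arm of the same hairpin was higher: miR-208a-5p had 21.5, 74.1, 48.8, 56.7 and 78.03 CPM in TAC and 119, 109, 258, 166 and 189.8 CPM under sildenafil. Its log2 fold change was 1.59 ± 0.37 (edgeR adjusted p = 0.00781), and 0.95 without the shallow libraries, which did not pass (edgeR adjusted p = 0.186). Both arms are cut from 1 precursor, and they differ in composition, with 54.5% GC in the 5p and 36.4% in the 3p arm. MiR-208b-5p had 2.49 to 3.71 CPM in TAC and no count in the 5 sildenafil libraries, which makes it at least 1.83-fold lower against a limit of 3 counts per library.

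MiR-133a-3p and miR-1a-3p, muscle microRNAs cut from shared primary transcripts, moved apart. MiR-133a-3p, which restrains growth of heart muscle cells, had 72435, 136130.0, 101050.0, 96707 and 140040.0 CPM in TAC and 153550.0, 143750.0, 277730.0, 201460.0 and 201370.0 CPM under sildenafil. It was higher by 0.84 ± 0.26 on the log2 scale (edgeR adjusted p = 0.0263), but not without the shallow libraries (0.37, edgeR adjusted p = 0.395). MiR-1a-3p, a regulator of muscle differentiation and conduction, had 4820.0, 4153, 2544, 4796 and 4957 CPM in TAC and 805, 1067, 47.2, 38.00 and 64.04 CPM under sildenafil, a log2 fold change of -3.39 ± 0.96 (edgeR adjusted p = 0.0175; -2.24 and 0.00479 without the shallow libraries). MiR-499-5p, from the Myh7b intron, ran from 399 to 899 CPM in TAC and from 14.8 to 321 CPM under sildenafil. Its log2 fold change of -2.35 ± 0.72 passed over the 10 libraries (edgeR adjusted p = 0.0239), did not pass without the shallow ones (-1.38, edgeR adjusted p = 0.0842), and was 0.044 with the GC correction (edgeR adjusted p = 0.947). The summed level of the 10 muscle microRNAs was 82890 to 150200 CPM in TAC and 147900 to 282100 under sildenafil, a sum that miR-133a-3p dominates. Markers of other tissues were low beside it: the liver, nerve, kidney, gut, pancreas, epithelial and skeletal muscle list summed to 1325 to 2611 CPM in TAC and 87.2 to 1061 under sildenafil, and 2 of its 9 members, miR-124-3p and miR-206-3p, had no count in the 10 libraries.

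**Figure D3:**
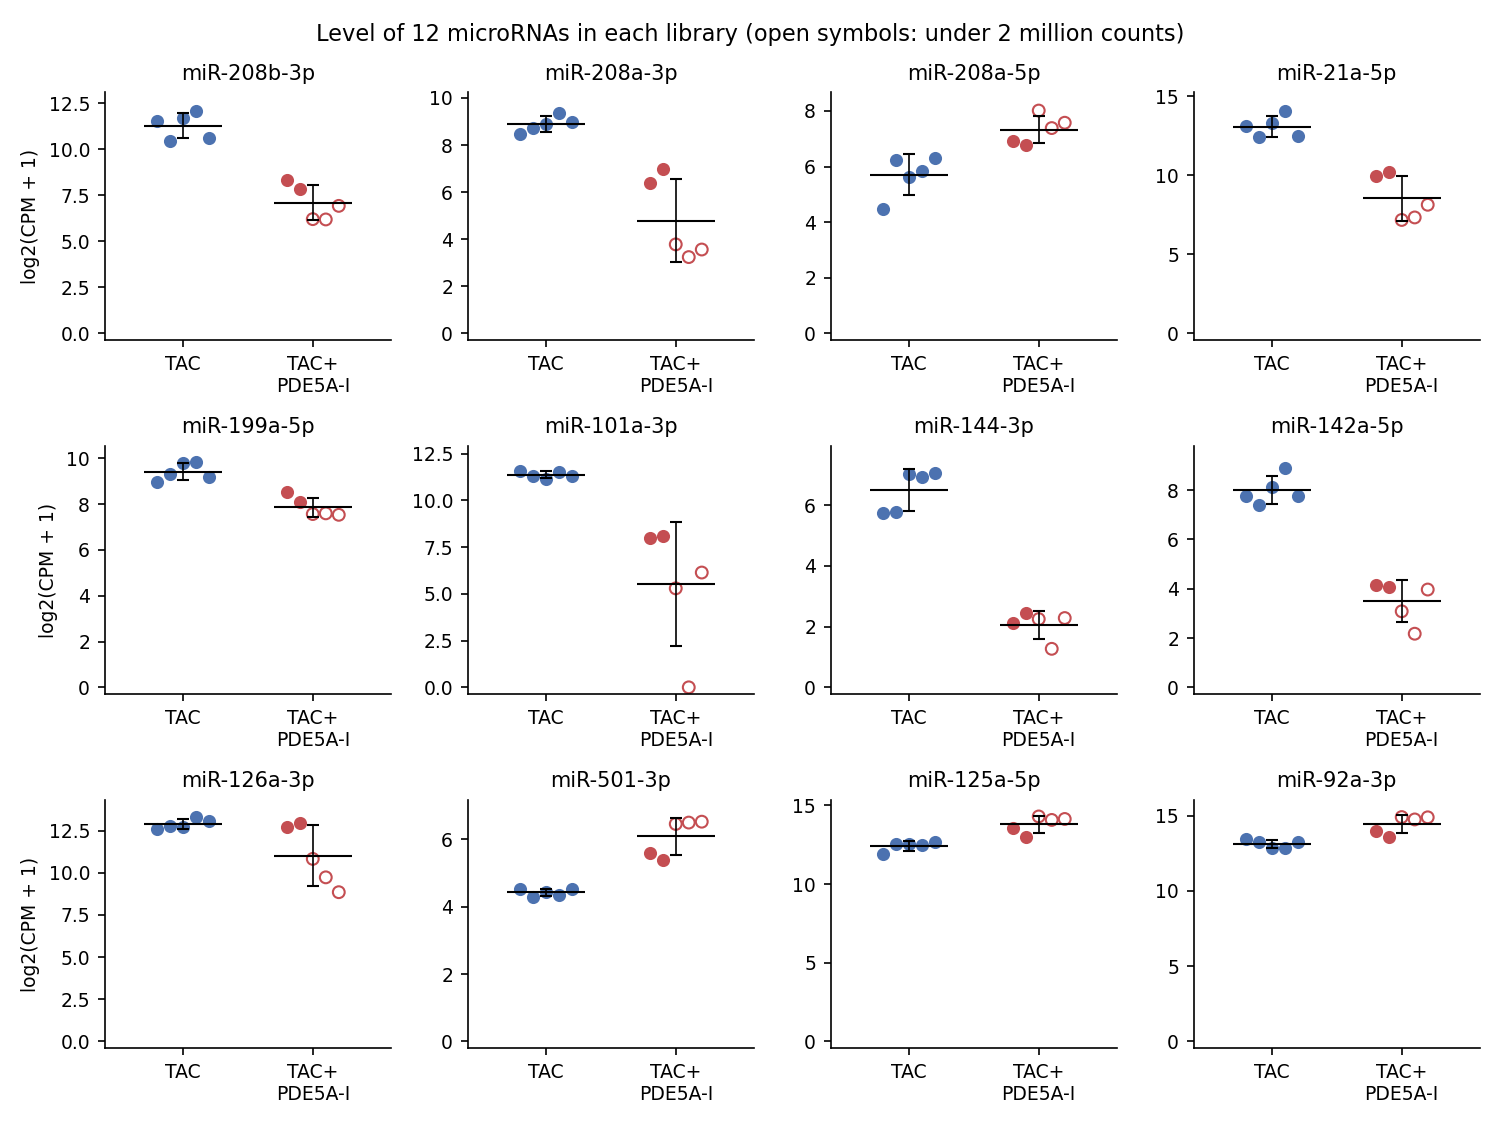
Levels of 12 microRNAs as log2(CPM + 1) on the y axis, by group on the x axis, with 1 point per library, open symbols for the 3 shallow libraries, a line at the mean and bars of 1 SD (n = 5 per group). For miR-208b-3p the 5 sildenafil libraries, at 71.8 to 322 CPM, lie under the 5 TAC libraries, at 1419.5 to 4294 CPM, while for miR-126a-3p the deep libraries lie within the TAC range.

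Of 26 microRNAs known as raised in the hypertrophic heart, 13 were lower and 3 higher under sildenafil. Their median was -0.73, and -0.16 under either upper-quartile scaling or the GC correction (0.47 and 0.30 over all microRNAs tested in each). Of 20 known as lowered in the hypertrophic heart, 10 were lower and 2 higher, with a median of -1.06 (0.60 with the GC correction, over 13 with a sequence). Over the 10 libraries with TMM scaling both lists were more often lower than higher, against 21.6% lower and 23.2% higher over all 462. With the GC correction the 2 medians lay on either side of the 0.30 of all microRNAs with a sequence. Without the shallow libraries 8 of the 26 and 4 of the 20 were lower and 0 of either list was higher. In that fit 61 of the 462 were lower and 5 higher.

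MiR-21a-5p, which rises in cardiac fibroblasts under pressure load, had 8795, 5407, 10067, 16975 and 5646 CPM in TAC and 972, 1159.9, 143, 159.7 and 279 CPM under sildenafil. The groups did not overlap, and the shallow libraries held the least. It was 17.3-fold lower, a log2 fold change of -4.11 ± 0.70 (edgeR adjusted p = 0.00325), -3.19 without the shallow libraries (edgeR adjusted p = 0.00733) and -1.91 with the GC correction (edgeR adjusted p = 0.00219). TAC+PDE9A-I 5 held 203 CPM against 2484 to 17447 in the rest of its group. Its other arm is unlike most lower microRNAs in composition, at 59.1% GC. MiR-21a-3p had 66.02, 26.7, 109, 102 and 44.2 CPM in TAC and 19.9, 21.2, 15.7, 22.5 and 11.6 CPM under sildenafil, so the groups did not overlap. The log2 fold change was -1.93 ± 0.39 (edgeR adjusted p = 0.00604), -2.296 with the GC correction (edgeR adjusted p = 0.00189), and -1.81 without the shallow libraries, where it did not pass (edgeR adjusted p = 0.0784). In TAC+PDE9A-I 5 it stood at 14.2 CPM, inside the 11.9 to 92.00 CPM of its group. MiR-21a-3p was named after its values were seen.

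The fibroblast-type stromal list, the miR-199 and miR-214 products of the Dnm3os locus and its relatives, had 4 of 5 lower and 0 higher, with a median of -1.54, and 3 lower without the shallow libraries (median -1.22). The shares over all 462 tested microRNAs were 21.6% lower and 23.2% higher. Without the shallow libraries 61 of the 462 were lower and 5 higher. MiR-199a-5p had 505, 635, 875, 905 and 578 CPM in TAC and 364, 269, 189, 193 and 184 CPM under sildenafil. No sildenafil library reached the TAC range, and the deep ones were the highest of their group. The log2 fold change was -1.54 ± 0.27 (edgeR adjusted p = 0.00325), -1.22 without the shallow libraries (edgeR adjusted p = 0.0298) and -1.35 with the GC correction (edgeR adjusted p = 0.00186), and its own GC content is 52.2%. MiR-199b-5p (-2.25, edgeR adjusted p = 0.00291) and the joined miR-199a-3p/miR-199b-3p (-2.04, edgeR adjusted p = 0.00768) were lower too. The joined pair with the GC correction was -0.39 and did not pass (edgeR adjusted p = 0.161), and the median of the 4 members with a sequence was -0.56. MiR-214-5p was lower by a smaller amount (-0.73, edgeR adjusted p = 0.0319), at 49.7 to 95.05 CPM in TAC and 33.03 to 58.4 under sildenafil. Its partner arm miR-214-3p had a log2 fold change of 0.91 that did not pass (edgeR adjusted p = 0.0538) and of -0.0014 without the shallow libraries. The summed level of the list was 5663 to 8508 CPM in TAC and 1456 to 3679 under sildenafil. In these bulk libraries fewer cells of a type, less RNA per cell and a difference in library depth or composition cannot be told apart.

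The miR-29 family, which acts on collagen messages, was lower for 2 of 3 members, with a median of -2.08 (0.09 with the GC correction). Of all 462 tested microRNAs 21.6% were lower. MiR-29b-3p had 38.6, 72.2, 95.2, 104 and 84.5 CPM in TAC and 13.3, 26.8, 8.98, 5.63 and 10.8 CPM under sildenafil (-2.55 ± 0.42 on the log2 scale, edgeR adjusted p = 0.00298, and -2.02 without the shallow libraries, edgeR adjusted p = 0.0309). MiR-29c-3p was -2.08 ± 0.55 on the log2 scale (edgeR adjusted p = 0.0139; -1.204 and 0.0396 without the shallow libraries). With the GC correction the values were 0.089 for miR-29b-3p and 0.061 for miR-29c-3p, and neither passed (edgeR adjusted p = 0.888 and 0.868). Both lie below the median of 0.30 that all microRNAs with a sequence had in that setting. MiR-29a-3p, the most abundant member, ran from 2656 to 5013 CPM in TAC and from 2277 to 3998 CPM under sildenafil, overlapping groups with a log2 fold change of -0.39 ± 0.25 (edgeR adjusted p = 0.221).
In the miR-30 family, which is abundant in heart muscle, 3 of 5 members were lower (median -1.31), and 0 of 5 without the shallow libraries (median -0.55). Of all 462 tested microRNAs 21.6% were lower, and 61 of the 462 were lower without the shallow libraries. MiR-30a-5p had 47026, 29312, 27263, 34075 and 34947 CPM in TAC and 20998, 27779, 10386, 6039 and 4376 CPM under sildenafil (-1.31 ± 0.48, edgeR adjusted p = 0.0439). The deep library 2 overlapped TAC for miR-30a-5p, and the shallow libraries were far below. MiR-30e-5p (-1.94, edgeR adjusted p = 0.0425) and miR-30b-5p (-1.77, edgeR adjusted p = 0.0428) were lower and miR-30c-5p had -1.04 (edgeR adjusted p = 0.125).

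Markers of vessel cells showed 2 arms of 1 hairpin with unlike values. MiR-126a-3p, an endothelial microRNA of vessel integrity, had 6338, 7185, 6635, 10034 and 8478 CPM in TAC and 6797, 7997, 1818, 851 and 461 CPM under sildenafil. The deep libraries lay within the TAC range and the shallow ones below it, and the log2 fold change of -1.11 ± 0.68 did not pass (edgeR adjusted p = 0.202). MiR-126a-5p was below TAC in each sildenafil library, with 36792, 21522, 20233, 33424 and 28204 CPM in TAC and 4613, 8198, 679, 496 and 572 CPM under sildenafil (-3.27 ± 0.82, edgeR adjusted p = 0.0109; -2.17 and 0.00764 without the shallow libraries). TAC+PDE9A-I 5 held 1015 CPM of it against 19825 to 31714 in the rest of its group.
In smooth muscle, where miR-143 and miR-145a maintain the contractile state, miR-143-3p was lower at 143640.0, 72823, 72473, 99020.0 and 88852 CPM in TAC and 31209, 43823, 7995, 5797 and 4294 CPM under sildenafil (-2.36 ± 0.64, edgeR adjusted p = 0.0159; -1.396 and 0.0298 without the shallow libraries). MiR-145a-3p was lower as well (-2.56, edgeR adjusted p = 0.0256; -1.48 and 0.0233 without the shallow libraries). The other arms did not pass: miR-143-5p stood at 29.8 to 50.3 CPM in TAC and 35.5 to 52.1 under sildenafil, and miR-145a-5p at 267 to 694 and 701 to 1109.5 CPM (0.69, edgeR adjusted p = 0.0525). The summed levels were 26870 to 43460 CPM in TAC and 1033 to 16200 under sildenafil for the 2 endothelial arms, and 73350 to 144200 and 5040 to 44800 for the 4 smooth muscle arms. In TAC the endothelial sum is mostly miR-126a-5p, and miR-143-3p dominates the smooth muscle sum in both groups.

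Of the blood cell markers, the erythroid ones were 2 of 3 lower (median -2.90) and the leukocyte ones 3 of 5 lower and 1 higher (median -2.35), and without the shallow libraries 2 of 3 and 3 of 5 were lower. Over all 462 tested microRNAs 21.6% were lower and 23.2% higher, and without the shallow libraries 61 were lower and 5 higher. The summed levels of the markers were 447.7 to 1227 CPM in TAC and 23.9 to 430.3 under sildenafil for the erythroid list, and 1402 to 2556 and 2249 to 3254 for the leukocyte list. Under sildenafil the leukocyte sum is dominated by miR-150-5p, at 1844 to 3087 CPM. MiR-144-3p, an erythroid microRNA, had 51.8, 53.6, 130.0, 122 and 132 CPM in TAC and 3.32, 4.39, 3.74, 1.41 and 3.86 CPM under sildenafil. In this case the deep libraries were as low as the shallow ones, with counts of 11, 19, 5, 2, 5 in TAC+PDE5A-I 1 to 5. The log2 fold change was -4.83 ± 0.42 (edgeR adjusted p = 4.41e-05), -4.71 without the shallow libraries (edgeR adjusted p = 0.00335) and -1.65 with the GC correction (edgeR adjusted p = 0.0451). MiR-144-5p was -2.898 (edgeR adjusted p = 0.007), and 0.017 with the GC correction. MiR-451a, from the neighbouring hairpin and matured without Dicer, had 349, 341, 520.0, 960.4 and 579 CPM in TAC and 214, 395, 49.4, 23.9 and 17.7 CPM under sildenafil. One deep library lay within the TAC range and the other below it with the shallow ones, and the difference did not pass (-1.96 ± 0.79, edgeR adjusted p = 0.0648).
MiR-142a-5p, a microRNA of blood-forming lineages, had 214, 169, 275, 478 and 218 CPM in TAC and 16.9, 15.7, 7.49, 3.52 and 14.7 CPM under sildenafil, with no overlap and with low values in the deep libraries too. The log2 fold change was -4.503 ± 0.47 (edgeR adjusted p = 0.000127), -4.12 without the shallow libraries (edgeR adjusted p = 0.00256) and -1.54 with the GC correction (edgeR adjusted p = 0.0193). MiR-142a-3p (-3.06, edgeR adjusted p = 0.0384) and the myeloid miR-223-3p (-2.35, edgeR adjusted p = 0.00768) were lower and passed without the shallow libraries (-1.91 and -1.54, edgeR adjusted p = 0.0165 and 0.00678). The lymphoid miR-150-5p was higher, at 311 to 1609 CPM in TAC and 1844 to 3087 under sildenafil (1.28, edgeR adjusted p = 0.0254), but not without the shallow libraries (0.83, edgeR adjusted p = 0.347). In TAC+PDE9A-I 5, miR-144-3p stood at 3.88 CPM against 19.5 to 168, miR-142a-5p at 10.99 against 140.0 to 389.8 and miR-150-5p at 2994 against 786 to 1444 in the rest of its group.
MiR-486b-5p, which heart muscle and erythroid cells both express and which is nearly identical to miR-486a-5p, had the largest share of counts in the shallow libraries, 25.8%, 28.2% and 30.5% of counts. It had 151480.0, 97130.0, 76879, 84772 and 106570.0 CPM in TAC and 132430.0, 107900.0, 315110.0, 275330.0 and 283820.0 CPM under sildenafil (1.11 ± 0.34, edgeR adjusted p = 0.0254). Without the shallow libraries its log2 fold change was 0.15 (edgeR adjusted p = 0.757), and TAC+PDE9A-I 5 held 257150.0 CPM against 60054 to 102470.0. MiR-22-3p, the leading microRNA of TAC 2 to 5 and of the deep sildenafil libraries, overlapped between the groups, at 142970.0 to 197530.0 CPM in TAC and 73431 to 177220.0 under sildenafil (-0.35, edgeR adjusted p = 0.309).

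The strongest single difference was that of miR-101c, a short form of miR-101a-3p. It had 1124, 956, 771, 1049.9 and 871 CPM in TAC, on counts of 5706, 7064, 5170, 8487, 4556, and no count in any of the 5 sildenafil libraries, at least 577-fold lower against a limit of 3 counts per library (edgeR adjusted p = 3.08e-06; 1.09e-05 without the shallow libraries). It had no count in TAC+PDE9A-I 5 either, and 2639 to 9676 counts in the other libraries of that group. MiR-101a-3p had 3090.2, 2521, 2271, 2915 and 2515 CPM in TAC and 254, 277, 38.2, 0 and 69.4 CPM under sildenafil. Counting error alone would put the 0 of TAC+PDE5A-I 4 at up to 2.11 CPM. TAC+PDE5A-I 1, 2, 3 and 5 held 842, 1198, 51 and 90 counts of miR-101a-3p, the sequence that contains miR-101c. The limits of 2.11 CPM and 577-fold cover counting error only, and the assignment of reads between these names was not tested. The log2 fold change of miR-101a-3p was -4.37 ± 1.04 (edgeR adjusted p = 0.00879), -3.39 without the shallow libraries (edgeR adjusted p = 7.92e-05). MiR-101b-3p, the remaining member and named after its values were seen, was -3.37 ± 0.67 (edgeR adjusted p = 0.00604; -2.396 and 0.00446 without the shallow libraries). With the GC correction miR-101a-3p was -1.95 and miR-101b-3p -2.16 (edgeR adjusted p = 0.0308 and 0.00186), and miR-101c passed as well (edgeR adjusted p = 2.57e-06). MiR-33-5p, which acts on cholesterol export, had 5.12 to 9.53 CPM in TAC and no count under sildenafil, at least 4.37-fold lower (edgeR adjusted p = 0.00164), and it too had no count in TAC+PDE9A-I 5.

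Other microRNAs among the 10 lower ones with the smallest p were below TAC in the deep and the shallow libraries alike. MiR-190a-5p, at 22.7% GC, had 29.6, 46.1, 33.6, 44.8 and 38.3 CPM in TAC and 2.72, 6.47, 2.25, 2.11 and 3.09 CPM under sildenafil (-3.44 ± 0.34, edgeR adjusted p = 0.000109; -3.09 and 0.00446 without the shallow libraries). MiR-340-5p, at 27.3% GC, had 263, 147, 190.2, 293 and 159.9 CPM in TAC and 33.5, 36.95, 20.96, 13.4 and 39.3 CPM under sildenafil (-2.86 ± 0.34, edgeR adjusted p = 0.000362; -2.64 and 0.00366 without the shallow libraries). The GC correction turned both to higher values, 0.60 and 1.24, that did not pass (edgeR adjusted p = 0.379 and 0.0628). MiR-301a-3p (-3.01, edgeR adjusted p = 0.000362) and miR-148a-3p (-2.78, edgeR adjusted p = 0.00127) had 229 to 487 and 5705 to 13042 CPM in TAC and 25.5 to 70.4 and 647 to 2154 CPM under sildenafil, and their values without the shallow libraries were -2.65 and -2.21 (edgeR adjusted p = 0.0075 and 0.00833). After the GC correction miR-148a-3p was -0.96 and passed, and miR-301a-3p was -0.78 and did not (edgeR adjusted p = 0.0292 and 0.129).

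The microRNAs higher under sildenafil with the smallest p moved less and depended more on the shallow libraries. MiR-501-3p, from the Clcn5 intron, had 21.9, 18.7, 20.4, 19.5 and 22.2 CPM in TAC and 47.4, 41.1, 86.8, 89.4 and 91.04 CPM under sildenafil. Both deep libraries were above the 5 TAC libraries and the 3 shallow ones were higher still. It was 3.45-fold higher, a log2 fold change of 1.79 ± 0.27 (edgeR adjusted p = 0.00164), 1.04 without the shallow libraries (edgeR adjusted p = 0.00678) and 1.805 with the GC correction (edgeR adjusted p = 0.00321). Its raw counts were 111, 138, 137, 158, 116 in TAC 1 to 5 and 157, 178, 116, 127, 118 in TAC+PDE5A-I 1 to 5, so they differed little while the totals differed 2.88-fold. TAC+PDE9A-I 5 held 51.1 CPM against 19.6 to 42.6 in the rest of its group.
MiR-125a-5p, a relative of the worm regulator lin-4, had 3814, 6048, 5945, 5758 and 6646 CPM in TAC and 12058, 8026, 20149, 17283 and 18032 CPM under sildenafil (1.42 ± 0.28, edgeR adjusted p = 0.00604). MiR-328-3p, which acts on calcium channel messages in atrial muscle, had 470.4, 692, 531, 464 and 672 CPM in TAC and 1079.9, 856, 2111, 2042 and 2417 CPM under sildenafil (1.59 ± 0.31, edgeR adjusted p = 0.00604). For both the groups did not overlap, and without the shallow libraries neither passed (0.75 and 0.70, edgeR adjusted p = 0.0808 and 0.0786). The same held for let-7d-3p (1.34), miR-1964-3p (1.38), miR-324-3p (1.399), miR-425-3p (1.08) and miR-874-3p (1.21), each with an edgeR adjusted p of 0.00604 over the 10 libraries and of 0.0783 to 0.0889 without the shallow ones. The 5 higher calls that remained without the shallow libraries were miR-501-3p, miR-6538, miR-714, miR-709 and miR-874-5p. MiR-6538, at 94.7% GC, had 20.1, 16.8, 25.5, 13.5 and 11.1 CPM in TAC and 30.5, 106, 71.9, 54.9 and 134 CPM under sildenafil (2.19 ± 0.40, edgeR adjusted p = 0.00449; 1.95 and 0.034 without the shallow libraries). With the GC correction it was 0.35 and did not pass (edgeR adjusted p = 0.33). MiR-714 (4.08 to 7.58 CPM in TAC, 9.85 to 41.7 under sildenafil), miR-709 (2.97 to 5.14 and 8.15 to 15.5) and miR-874-5p (4.14 to 6.22 and 10.5 to 18.5) are low in level. The last 2 were named after their values were seen.

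The let-7 family, whose 9 guide strands share 1 seed and restrain growth and glucose signalling, was split in direction. The 5 members with a positive value have G at both positions 11 and 12, and the 4 with a negative value do not, which is why these sequences are shown.
let-7a-5p: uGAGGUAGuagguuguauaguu
let-7b-5p: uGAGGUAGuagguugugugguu
let-7c-5p: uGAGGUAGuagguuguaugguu
let-7f-5p: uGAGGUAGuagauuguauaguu
let-7g-5p: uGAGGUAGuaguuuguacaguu
miR-98-5p: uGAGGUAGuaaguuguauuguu
Counted from the 5′ end and with let-7a-5p as the reference, let-7b differs by A17G and A19G, let-7c by A19G, let-7f by G12A, let-7g by G12U and U18C, and miR-98 by G11A and A19U. Let-7a-5p had 6055, 6407, 5688, 6075 and 5993 CPM in TAC and 9144, 6509, 11375, 9165 and 8628 CPM under sildenafil (0.57 ± 0.19, edgeR adjusted p = 0.0341). Let-7f-5p, which differs from it by 1 base, had 19107, 14345, 12952, 17317 and 15365 CPM in TAC and 11016, 10801, 2892, 1777 and 1016 CPM under sildenafil (-1.52 ± 0.61, edgeR adjusted p = 0.0618, not passed). Let-7a was above TAC in each sildenafil library, and let-7f was below TAC in each, lowest in the shallow ones. Let-7b (1.34), let-7c (1.02) and let-7d (0.75) were higher with let-7a (edgeR adjusted p = 0.0122, 0.0136 and 0.0221), and let-7e was 0.96 (edgeR adjusted p = 0.0646). Let-7g (-1.01), let-7i (-0.64) and miR-98 (-1.81) had negative values that did not pass (edgeR adjusted p = 0.0703, 0.0653 and 0.0668). Without the shallow libraries 0 of the 9 passed, and each kept its sign, from -0.75 in miR-98 to 0.54 in let-7d. TAC+PDE9A-I 5 differed from its group in the same direction for each of the 9, with let-7a at 9296 CPM against 5624 to 7753 and let-7f at 4108 against 15226 to 19878. The split was seen in the data first. Over the 405 tested microRNAs with a sequence, GG at positions 11 and 12 was found in 32 (7.90%), of which 15 were higher and 2 lower (median 0.76), against 77 higher and 85 lower of the other 373 (median -0.21). The 32 include the let-7 members that prompted the count, so it is a description, and without the 9 members of the family 27 were left, of which 11 were higher and 2 lower (median 0.72), against 77 higher and 85 lower of 369 (median -0.19). A GG pair itself adds to the GC content, which was not compared between these sets. Position and composition were therefore not told apart. Reads of family members that differ by 1 base can be assigned to one another, so each value of 1 member carries that uncertainty. With the GC correction each of the 9 had a positive value, 3.58 for let-7a, 1.27 for let-7f and 0.70 for miR-98, so the direction of let-7f, let-7g, let-7i and miR-98 depended on that setting.

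**Figure D4:**
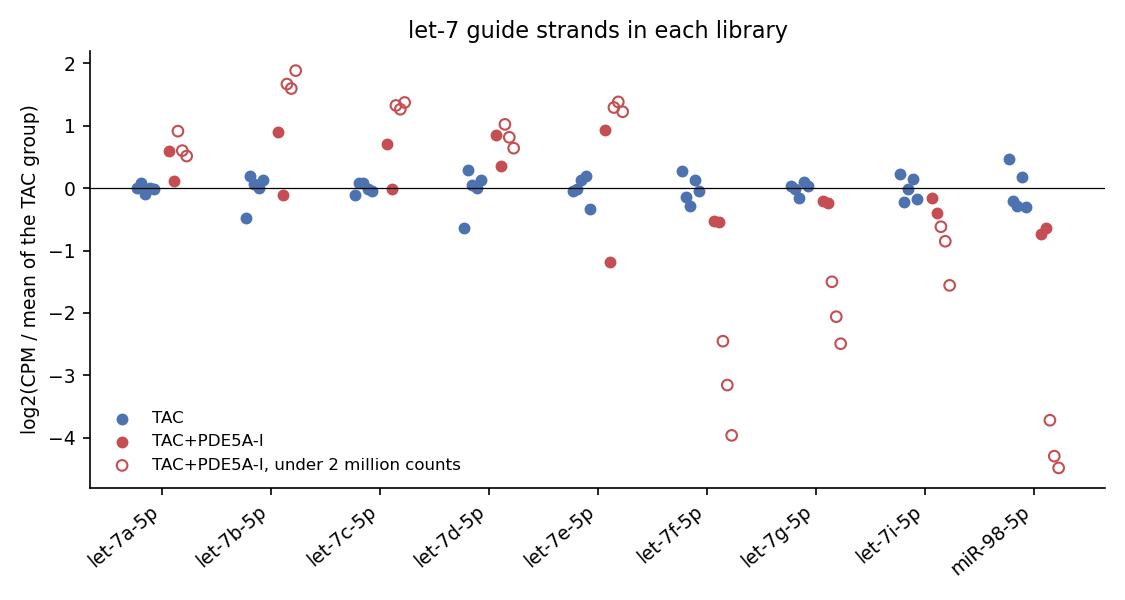
Level of each let-7 guide strand and of miR-98-5p in each library as log2 of its CPM over the mean CPM of the TAC group (y axis), by family member (x axis), with open symbols for the 3 shallow libraries. Let-7a is at 6509 to 11375 CPM in the sildenafil libraries against 5688 to 6407 in TAC, while let-7f is at 1016 to 11016 against 12952 to 19107.

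Other families held members on both sides. For comparison, 21.6% of all 462 tested microRNAs were lower and 23.2% higher, with a median of -0.06. Without the shallow libraries 61 of the 462 were lower and 5 higher. Of the miR-15/16 family, a brake on the cell cycle, 3 of 6 were lower and 1 higher (median -1.56). MiR-15a-5p was -1.93 ± 0.63 (edgeR adjusted p = 0.0309) with 299 to 449 CPM in TAC and 23.9 to 264 under sildenafil, and miR-15b-5p, with the same seed and the same GC content of 40.9%, was 1.201 ± 0.32 (edgeR adjusted p = 0.0136) with 44.7 to 92.5 and 89.8 to 241 CPM.
miR-15a-5p: uAGCAGCAcauaaugguuugug
miR-15b-5p: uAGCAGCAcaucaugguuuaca
MiR-322-5p (-2.71, edgeR adjusted p = 0.0175) and miR-195a-5p (-1.95, edgeR adjusted p = 0.0436) were lower, and both passed without the shallow libraries (-1.64 and -0.92, edgeR adjusted p = 0.0093 and 0.0341), while miR-15a-5p (-0.97, edgeR adjusted p = 0.0751) and miR-15b-5p (0.35, edgeR adjusted p = 0.434) did not. Of the miR-17-92 group, 9 of its 13 members were tested, 3 were lower and 1 higher (median -0.93). The higher member, miR-92a-3p, had 10949, 9583, 7449, 7295 and 9556 CPM in TAC and 15870.0, 12373, 30673, 27501 and 30326 CPM under sildenafil (1.38 ± 0.29, edgeR adjusted p = 0.007; 0.58 and 0.0889 without the shallow libraries). MiR-19a-3p (-3.68, edgeR adjusted p = 0.00949), miR-19b-3p (-3.07, edgeR adjusted p = 0.0229) and miR-106b-5p (-1.602, edgeR adjusted p = 0.0175) were lower, and miR-19b-3p alone of these passed without the shallow libraries (-2.01, edgeR adjusted p = 0.0112). In the group of miR-10, miR-99, miR-100 and miR-125 3 of 7 were higher and 0 lower, and 0 of 7 passed without the shallow libraries. The median was -0.26, or 0.24 under either upper-quartile scaling or the GC correction. These 2 settings gave 0.47 and 0.30 over all microRNAs tested in each. MiR-99b-5p (0.90, edgeR adjusted p = 0.0109) and miR-125b-5p (0.80, edgeR adjusted p = 0.0233) were higher with miR-125a-5p, and miR-10b-5p was -1.53 (edgeR adjusted p = 0.0654, not passed).

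Both arms were tested for 123 hairpins. Neither arm passed in 28, 1 arm in 66, both were higher in 15, both lower in 11, and 3 hairpins had arms called in opposite directions. Single microRNAs were called higher for 23.2% and lower for 21.6% of the 462, and the counts of hairpins such shares would give were not tested. These 3 hairpins were miR-208a, miR-15b and miR-106b, and in each the higher arm had the higher GC content. They were picked by their calls, so the order of GC content in them is a description.
miR-15b-3p: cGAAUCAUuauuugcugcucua
miR-106b-5p: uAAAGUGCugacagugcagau
miR-106b-3p: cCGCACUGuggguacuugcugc
For miR-15b, in an intron of Smc4 at chr3:69009772-69009835 on the plus strand, the 5p arm was 1.201 at 40.9% GC and the 3p arm -2.701 at 36.4% (edgeR adjusted p = 0.0136 and 0.0166). For miR-106b, in an intron of Mcm7 at chr5:138165737-138165818 on the minus strand, the 5p arm was -1.602 at 42.9% GC and the 3p arm 1.13 at 63.6% (edgeR adjusted p = 0.0175 and 0.00768). In the fit without the shallow libraries none of the 3 pairs had both arms called: miR-208a-5p, miR-15b-5p and both miR-106b arms did not pass (edgeR adjusted p = 0.186, 0.434, 0.09 and 0.148). With the GC correction both miR-208a arms passed in opposite directions, while miR-15b-3p and both miR-106b arms did not pass (edgeR adjusted p = 0.203, 0.287 and 0.203).

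The log2 fold changes ran with the GC content of the mature sequence. Among the 405 tested microRNAs with a sequence, the log2 fold change had a Spearman correlation with GC content of 0.755, of 0.643 without the shallow libraries, and of 0.664 for TAC+PDE9A-I 5 against its own group, given as descriptions across microRNAs of the same libraries. Of the 32 microRNAs at up to 35% GC, 22 were lower and 0 higher, with a median of -2.64. Of the 95 between 35% and 45%, 41 were lower and 5 higher (median -1.62), and of the 163 between 45% and 55%, 23 were lower and 29 higher (median -0.02). Of the 80 between 55% and 65%, 1 was lower and 41 were higher (median 0.95), and of the 35 above 65%, 0 were lower and 17 higher (median 1.01). The medians without the shallow libraries ran in the same order, -1.82, -0.86, 0.03, 0.46 and 0.48, and so did those of TAC+PDE9A-I 5, -3.70, -3.33, -0.22, 0.70 and 1.09. After a correction that takes out the trend of level on GC in each library, 93 of the 405 were higher (23.0%) and 33 lower (8.15%). The median log2 fold change of all 405 was 0.30 with this correction, so a corrected value near 0 lies below it. Of the calls with a sequence, 48 of 92 higher and 29 of 87 lower ones remained, and 88 of 92 and 71 of 87 kept their direction.

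**Figure D5:**
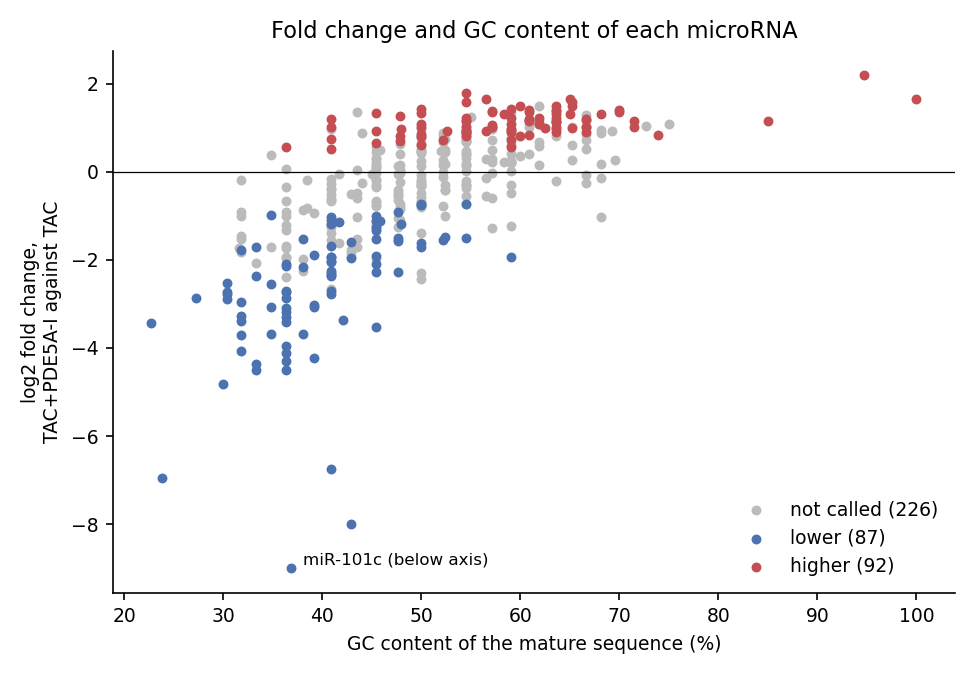
GC content of the mature sequence in percent (x axis) against the log2 fold change, sildenafil over TAC (y axis), for the 405 tested microRNAs with a sequence, 1 point each, coloured by call, with miR-101c drawn at the lower edge. The 87 lower calls lie mostly under 45% GC and the 92 higher calls mostly above it, with medians that run from -2.64 at up to 35% GC to 1.01 above 65%.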

How the data were processed

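The deposited table holds raw counts of reads per mature microRNA, which the authors left unnormalised, per the file headers. RNA came from frozen tissue, and 500 ng of total RNA went into the Illumina TruSeq Small RNA kit, per the labels' protocols. Bowtie 1.1.1, cutadapt 1.8, CASAVA 1.8.4 and DESeq 1.26.0 are named with no role per the submitters' processing notes. The build and the annotation used for counting were not stated in the sources used here. In the table, 24055 of 25958 lines carry no microRNA name and no counts. The smallest count above 0 is 2, and 12 names join near-identical microRNAs.

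The 10 libraries were fitted alone in R 4.3.3 with edgeR 4.0.16 (filterByExpr by group, TMM, robust quasi-likelihood F test, 8 residual degrees of freedom, limma 3.58.1). Of 741 microRNAs with a count, 462 were tested, and p-values were adjusted over these 462. DESeq2 1.42.0 was an alternative. The fit was tested on counts simulated from its own means and spreads. These held no distortion linked to depth or GC content, so that test could not reveal one. Where a count was 0, up to 3 counts remain possible, equal to 0.371 to 2.31 CPM over the 10 libraries. Reads carry no molecular identifiers, so such limits cover counting error only. Mature sequences from RefSeq (GRCm38.p6) matched 405 of the 462, 87.7%, and host genes are those of GENCODE vM21 (GRCm38). For the GC correction, a loess curve (span 0.75) of log2 CPM on GC content entered as an offset per library. The fit without the shallow libraries has 5 residual degrees of freedom.

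MicroRNAs were named by a rule: the 10 higher and the 10 lower with the smallest p at a mean of at least 10 CPM, a set of heart and cell markers, up to 4 members of each list, those at 0 in a whole group, and hairpins with arms called opposite ways. Outside it, miR-21a-3p, miR-101b-3p, miR-98-5p, miR-709 and miR-874-5p were named after their values were seen. The members and lists were chosen with earlier results of these data known. Ear tags mark 1 mouse per library. Replicate numbers did not pair the libraries. Of the Sham libraries only the depth and GC content of Sham 4 and Sham 5 are given, and the libraries of TAC+PDE9A-I entered as a description only.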

Additional observations from a re-analysis of the deposited data

Results flagged for a closer look

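In 176 groups of 5 libraries examined, 6 held a library that stood apart from the other 4 by Dixon's criterion at its 95% level, which chance alone gives for about 1 group in 20. TAC 1 stood below the other TAC libraries for miR-324-3p (8.87 CPM against 12.4 to 13.6), for miR-29a-3p (2656 against 4459 to 5013) and for miR-125b-5p (3159 against 4997 to 5434). TAC+PDE5A-I 2, a deep library, stood above the others of its group for miR-190a-5p (6.47 against 2.11 to 3.09). TAC+PDE5A-I 1 held 3.32 CPM of miR-19a-3p while the other 4 held 0. TAC+PDE5A-I 4 stood above its group for miR-143-5p (52.1 against 35.5 to 40.2). Outside the comparison, the count-weighted GC content of TAC+PDE9A-I 5 was 47.2%, against 44.7% to 45.3% in the other 5 libraries of its group.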

How the results depend on the processing

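Leaving out 1 library at a time gave 56 to 108 higher and 64 to 145 lower microRNAs, and ended the call of 0 to 17 of the 86 named microRNAs, depending on the library. Differences of the group means stayed between -4688063 and -3771140 total counts and between 1.97 and 2.61 percentage points of GC. Without the libraries under 2000000 counts, 6 were higher and 66 lower, and the difference in total counts was -2971892 and did not pass (two-sided exact permutation test, unadjusted p = 0.0952, 2 against 5 libraries), while that in GC was 1.003 points (unadjusted exact p = 0.0476, the smallest this design allows). In this setting 31 of the 86 named microRNAs lost their call, on fewer libraries. Upper-quartile scaling gave 177 higher and DESeq2 size factors in edgeR gave 67. The replicate block gave 68 higher and 77 lower. The numbers were not taken to pair mice: correlations of same-numbered libraries were 0.12, -0.04, -0.02, -0.12 and 0.03, and only those of replicate 1 correlated best with their own number. The GC correction gave 33 lower, and with the shallow libraries left out as well, an alternative chosen after seeing the data, 20 higher and 15 lower. The causes of these shifts were not tested.

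The median log2 fold change of all tested microRNAs was 0.30 with the GC correction, and 0.15 with the shallow libraries left out as well. A positive value below these medians does not mean a rise relative to the other microRNAs. MiR-499-5p, miR-29b-3p, miR-29c-3p, miR-144-5p and miR-30c-5p stayed below the 0.30. Signs turned for some named microRNAs, nearly all under the GC correction. With it the log2 fold changes were 0.60 for miR-190a-5p, 1.24 for miR-340-5p, 0.044 for miR-499-5p, 0.75 for miR-22-3p, 1.603 for miR-29a-3p, 0.089 for miR-29b-3p, 0.061 for miR-29c-3p, 1.27 for let-7f-5p, 1.35 for let-7g-5p, 1.30 for let-7i-5p, 0.70 for miR-98-5p, 0.017 for miR-144-5p, 1.78 for miR-9-5p and 0.079 for miR-30c-5p. With the correction and no shallow libraries they were 0.35 for miR-499-5p, 0.54 for miR-22-3p, 0.85 for miR-29a-3p, -0.15 for miR-214-3p, 0.44 for miR-126a-3p, 0.60 for miR-451a, 1.40 for let-7f-5p, 1.23 for let-7g-5p, 0.72 for let-7i-5p, 1.24 for miR-98-5p, 0.072 for miR-144-5p, 0.76 for miR-9-5p, 0.13 for miR-194-5p, 0.25 for miR-29c-3p, 0.0597 for miR-30e-5p, 0.53 for miR-30c-5p, 0.025 for miR-15a-5p and 0.19 for miR-10b-5p. Upper-quartile scaling gave 0.19 for miR-22-3p and 0.18 for miR-29a-3p, below its median of 0.47 over all tested microRNAs. Without the shallow libraries miR-214-3p was -0.0014 and miR-143-5p -0.031. MiR-143-5p, whose change never passed in the 10 libraries, was also -0.17 with DESeq2 size factors, -0.17 with the DESeq2 Wald test, -0.022 with the leading digit of the ear tag as a covariate, and -0.12 to 0.14 with 1 library left out. In the shallow libraries 364 to 396 microRNAs had a count, against 524 to 613 in TAC, so low levels there were not measurable.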

Other observations

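The imprinted Dlk1-Dio3 cluster on chromosome 12, a large group of microRNAs expressed from the maternal chromosome, had 33 of its 57 listed members tested. Of these 10 were lower and 3 higher, against 21.6% lower and 23.2% higher over all 462 tested microRNAs. The median was -0.58, or -0.073 under upper-quartile scaling, against -0.06 and 0.47 over all 462 tested microRNAs. Without the shallow libraries 4 were lower and 0 higher, while 61 of the 462 were lower and 5 higher. MiR-136-5p had 32.5, 33.96, 48.3, 34.9 and 41.1 CPM in TAC and 2.72, 3.695, 1.497, 0 and 0 CPM under sildenafil (-4.300 ± 0.60, edgeR adjusted p = 0.00124; -3.61 and 0.00049 without the shallow libraries). Its other arm, miR-136-3p, was lower as well (-3.41, edgeR adjusted p = 0.00604), and so was miR-411-5p (-1.56, edgeR adjusted p = 0.00604), at 264 to 475 CPM in TAC and 70.2 to 198 under sildenafil. MiR-369-3p had 2.76 to 4.48 CPM in TAC and no count under sildenafil, at least 2.11-fold lower against 3 counts per library.

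Hairpins that lie together on a chromosome can share a transcript. Among 26 groups of hairpins on 1 strand within 10000 bases of the next, with 120 tested microRNAs, 8 held members called in both directions. An example is the group of miR-25, miR-93 and miR-106b in Mcm7, with 3 arms higher and 1 lower of 6. Among 44 seeds shared by 113 tested microRNAs, 4 had members called in both directions, 2 had all members higher and 7 had all members lower. MiR-208b-3p and miR-208a-3p formed such a pair of lower members, and the 3 microRNAs with the seed CCCUGAG, miR-125a-5p, miR-125b-5p and miR-351-5p, formed a higher one. Without the shallow libraries none of these 3 passed (0.75, 0.46 and 0.15, edgeR adjusted p = 0.0808, 0.296 and 0.655), while miR-208b-3p and miR-208a-3p did. Over all 462 tested microRNAs 44.8% were called, and how many such groups and seeds that share would give was not tested.

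In the markers of other tissues, 6 of 9 were tested, 2 were lower and 0 higher, against 21.6% lower and 23.2% higher over all 462. The median was -0.46, or 0.10 under upper-quartile scaling, against -0.06 and 0.47 over all 462 tested microRNAs. MiR-192-5p, a kidney and gut microRNA, had 1218 to 2511 CPM in TAC and 53.2 to 951 under sildenafil (-2.27, edgeR adjusted p = 0.0348), and miR-9-5p of nervous tissue had 8.42 to 17.9 and 3.92 to 10.4 CPM (-0.98, edgeR adjusted p = 0.0368). MiR-194-5p (-1.34) and miR-200c-3p (1.37) did not pass (edgeR adjusted p = 0.0821 and 0.127). Without the shallow libraries 0 of the 6 were called (median -0.10), with miR-192-5p at -1.19 and miR-9-5p at -0.81 (edgeR adjusted p = 0.0578 and 0.267). The GC correction turned miR-9-5p to 1.78 (edgeR adjusted p = 0.02).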
